A study of Mus musculus with 39 samples.

Results

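The genes described here encode the proteins of the cytosolic ribosome. They were taken as every protein-coding mouse gene named Rpl or Rps with a number, together with Rpsa and Rplp0 to Rplp2, leaving out 10 Rps6k kinase genes, 1 gene (Rps19bp1) that encodes a binding protein of Rps19, and pseudogene names. This gave 85 genes, 33 of the small 40S subunit and 52 of the large 60S subunit, of 46078 genes in the count files. The choice used names and no measured value, and was made with earlier results of these data known.

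RNA of the gastrocnemius, a largely fast-fibred muscle of the calf, was sequenced from C57BL/6 mice while a Lewis lung carcinoma (LLC) tumour developed. LLC cells are a line from a mouse lung tumour, used in this strain to study cachexia, the loss of muscle that can accompany a tumour. At 8 weeks of age the mice received phosphate-buffered saline (PBS) or LLC cells in the hind-flank, and muscles were taken after 7, 14, 21 or 28 days of tumour, called weeks 1 to 4. Tumour mice of later weeks were thus older when muscle was taken, so age and tumour time cannot be told apart between weeks. The sample titles give no day for the PBS muscles. The submitters state that wasting was evident at week 4. Count files of 38 libraries were analysed: 8 for PBS, 8 for week 1, 7 for week 2, 7 for week 3 (its replicate 2 is not analysed here) and 8 for week 4. No gene was altered in these mice, and the labels name no other treatment. The labels give each sample a code of its own, with nothing further on the animals, and each p-value therefore covers the spread between samples alone. In whole muscle, fewer cells of a type and less RNA per cell cannot be told apart.

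The ribosome reads messenger RNA with its 40S subunit and joins amino acids with its 60S subunit. Each ribosome carries about the same number of most ribosomal proteins, and their messenger RNAs start with a run of pyrimidines through which mTORC1, the kinase complex that couples growth signals to protein synthesis, controls their translation. Skeletal muscle has a ribosome variant of its own, in which Rpl3l takes the place of Rpl3 beside the catalytic centre. Muscle growth and wasting are both accompanied by changes in ribosome number, which is set mainly through ribosomal RNA synthesis and ribosome assembly.

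To show the start of such a gene beside that of the muscle variant, the promoters of Rpl7a and Rpl3l are printed from RefSeq on build GRCm38.p6, each covering 250 bases before the start and 50 after it, 5′ to 3′. Rpl7a encodes a 60S protein and lies at chr2:26910557-26910856 on the plus strand. Capitals mark a run of 21 pyrimidines that begins 14 bases before the annotated start. Rpl3l lies at chr17:24727576-24727875 on the plus strand. Capitals there mark CAGCTG, the E-box form bound by the muscle factor MyoD.
Rpl7a: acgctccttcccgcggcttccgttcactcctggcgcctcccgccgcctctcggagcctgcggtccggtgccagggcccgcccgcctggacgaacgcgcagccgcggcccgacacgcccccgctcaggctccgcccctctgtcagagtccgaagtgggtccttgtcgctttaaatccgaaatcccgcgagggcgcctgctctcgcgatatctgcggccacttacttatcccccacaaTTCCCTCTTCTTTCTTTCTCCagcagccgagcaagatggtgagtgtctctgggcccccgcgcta
Rpl3l: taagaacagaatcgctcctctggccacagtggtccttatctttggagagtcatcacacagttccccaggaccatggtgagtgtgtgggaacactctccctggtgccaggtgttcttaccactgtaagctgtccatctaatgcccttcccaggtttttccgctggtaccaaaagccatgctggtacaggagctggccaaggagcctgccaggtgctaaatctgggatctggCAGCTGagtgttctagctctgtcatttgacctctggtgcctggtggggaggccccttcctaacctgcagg
Promoters were found for 65 of the 85 genes. A run of at least 8 pyrimidines (C or T on the gene's strand) within 25 bases of the start was present in 35 of them, 53.8%, against 24.1% of all 32851 promoters in the table. Rpl3l had no such run, which says only that these letters are not in this window. CAGCTG, which reads the same on both strands, was present in 4 of the 65, Rpl10l, Rpl35, Rpl3l and Rpl6, which is 6.15% against 16.3% of all promoters. These matches describe the sequences and show no binding.

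Libraries held 13356756 to 24801565 reads in genes. The lane of each library, read from the names of the deposited files, was unevenly spread over the groups: PBS libraries ran in lanes 5 and 6 and week 4 libraries in lanes 2 and 4, so these groups share no lane. Lane 2 held 5 libraries of week 4, 3 of week 1 and 1 each of weeks 2 and 3. Besides lane 2, 5 libraries stood apart. PBS replicate 1 had 1146 CPM (read counts scaled to a common library size) over 12 macrophage markers, against a median of 135 CPM in PBS. Week 3 replicates 1 and 3 and week 2 replicate 6 had 8.97%, 10.6% and 10.1% of reads in no gene, against 6.10% or less in the other libraries. Week 1 replicate 7 had 55790 CPM on 7 genes copied from the mitochondrial genome, against 151 CPM or less elsewhere. The 10 muscle fibre markers summed to 93670 to 166200 CPM at week 4 and 121800 to 167200 CPM in PBS and outweighed every other marker list, as the labelled tissue implies. No listed marker of fibres, macrophages, neutrophils, erythroid cells, lymphocytes, fibroblasts or satellite cells was at 0 in every library.

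Ribosomal protein genes took a smaller share of reads in lane 2, in every group that had libraries there. The 85 genes held 0.469% to 0.835% of gene reads in the 10 lane 2 libraries, with a median of 0.633%, against 0.882% to 1.575% in the other 28, with a median of 1.12%. The ranges did not overlap. Outside lane 2 the median share was 1.12% in PBS, 1.03% at week 1, 1.11% at week 2, 1.26% at week 3 and 1.21% at week 4. Within lane 2 it was 0.624% at week 1, 0.469% in the week 2 library, 0.518% in the week 3 library and 0.685% at week 4. Reads with more than 1 alignment, which the count files tally apart from genes, made up 7.47% to 23.3% of reads in lane 2 and 7.98% to 27.8% in the other lanes, so those ranges did overlap.

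**Figure D1:**
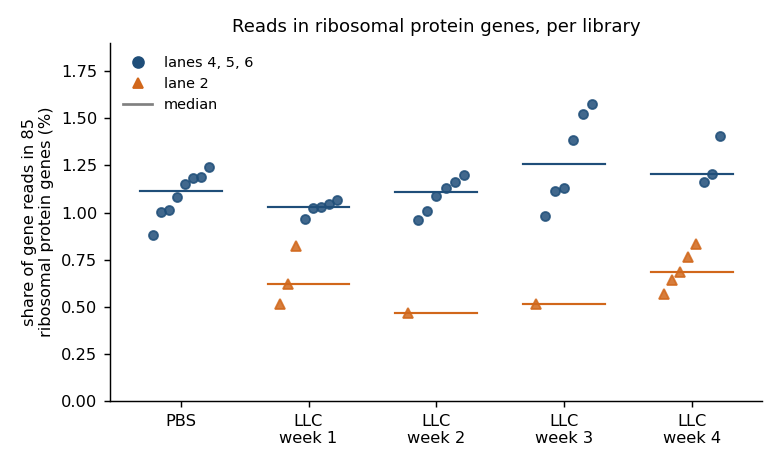
Share of gene reads (%, y axis) in the 85 ribosomal protein genes for each library, by group. Circles are libraries of lanes 4, 5 and 6, triangles those of lane 2, and lines group medians within each. All 10 triangles lie below all 28 circles.

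The members were tested with a term for lane 2 in the fit, which was chosen with earlier results of these data known. The lane 2 values here describe that difference and are no independent support for it. Of the 85, Rpl10l, a testis paralog of Rpl10, had 0 reads and Rpl39l, a testis paralog of Rpl39, had 30 reads over all libraries, and neither passed the low-count filter. For the other 83, edgeR's quasi-likelihood test with Benjamini-Hochberg adjustment over all 14689 genes called 75 lower and 1 higher in lane 2 than in the other lanes, or 91.6%, against 35% of all genes (18.5% lower, 16.5% higher). The median log2 difference was -0.95 for the members and 0.02 for all genes. Rpl39, at the exit tunnel of the 60S subunit, differed most (log2 -2.21, SE 0.21, adjusted p = 2.4e-10). Rpl22l1, Rps27 and Rps21 followed at log2 differences of -2.19, -2.10 and -2.04. Rps9, a 40S protein that bears on decoding accuracy, differed by a log2 value of -0.03 (SE 0.10, adjusted p = 0.85). The only member called higher was Rps27rt, a retrogene of Rps27 with under 1 CPM in every library (log2 difference 1.32, SE 0.50, adjusted p = 0.038).

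The lane 2 difference was larger for shorter transcripts. Among other protein-coding genes its median was a log2 value of -1.01 up to 600 bases, -0.63 up to 1000, -0.26 up to 2000, 0.02 up to 4000 and 0.22 above. The members had medians of -1.35, -0.96, -0.75 and -0.55 in the first 4 of these classes, with 20, 32, 25 and 5 genes. The 1 gene above 4000 bases, Rps15a, had -1.65. Lengths are of 1 annotated transcript per gene, the longest among those ranked equally as principal, and which transcript the muscle made was not tested. Their median transcript length was 886 bases, against 3084 for the other protein-coding genes. Across genes, which are not independent replicates, Spearman's rho between length and the lane 2 difference was 0.35 over the 83 members and 0.61 over 12840 other genes. For GC content it was -0.10 and -0.05. The part of length in the lane difference was not tested.

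**Figure D2:**
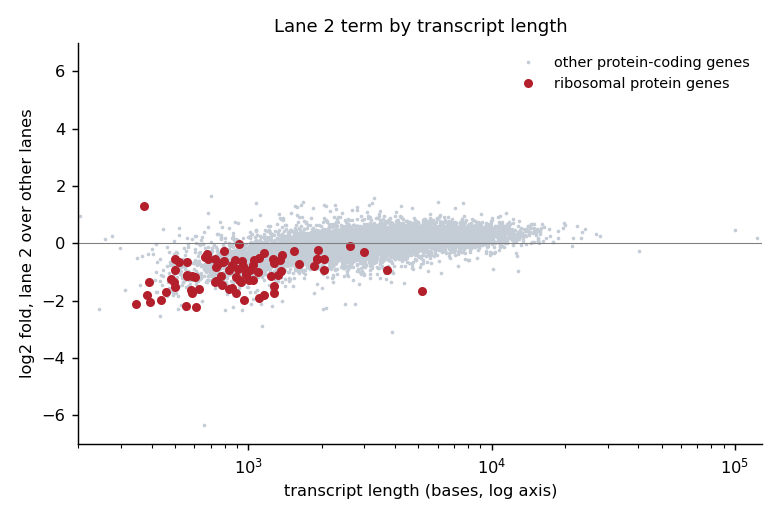
Log2 difference of lane 2 from the other lanes (y axis) against transcript length in bases (x axis, log scale), 1 point per gene. Large points are the 83 tested ribosomal protein genes, with a median of -0.95, and small points the other protein-coding genes.

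Ribosomal protein genes as a group differed little between tumour-bearing and PBS muscle once lane 2 was in the fit. The median log2 fold change of the 83 members was 0.02 at week 1, 0.06 at week 2, 0.11 at week 3 and 0.11 at week 4, against -0.01, -0.02, -0.01 and -0.02 for all genes. Positive values were found for 55, 55, 70 and 64 of the 83. Without the 10 lane 2 libraries the week 1 direction turned, with a median of -0.08 and 17 of 83 positive. By edgeR's quasi-likelihood test with Benjamini-Hochberg adjustment, no member was called at weeks 1, 2 or 3, where 0.0477%, 0% and 0.381% of all genes were called, and 2, 5 and 6 members had an unadjusted p under 0.05. At week 4, 1 member was called, Rpl7a, or 1.2% of the 83, while 5.64% of all genes were called (3.44% higher, 2.2% lower), and 7 members had an unadjusted p under 0.05. The 4 comparisons share the PBS libraries. At week 4 the 33 genes of the 40S subunit had a median of 0.12 and the 50 of the 60S subunit 0.10.

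**Figure D3:**
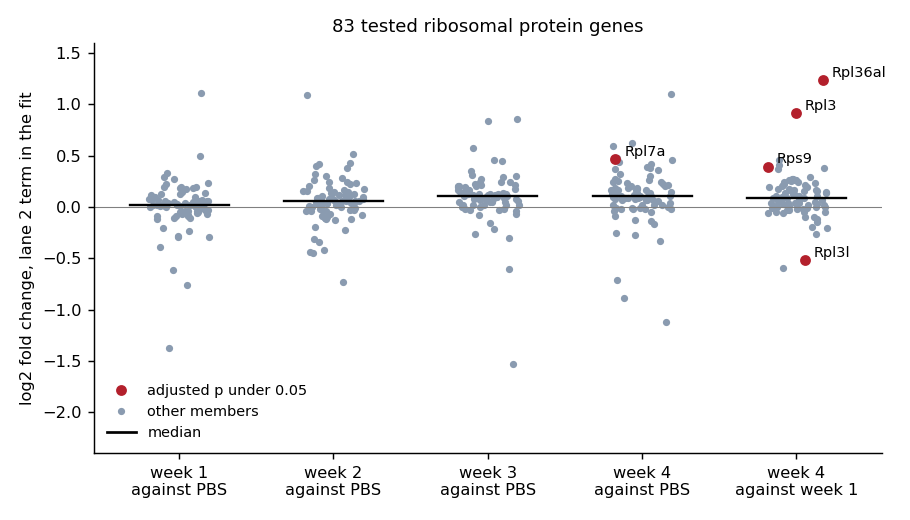
Log2 fold changes (y axis) of the 83 tested ribosomal protein genes in 5 comparisons, with the lane 2 term in the fit. Dark lines are medians, between 0.02 and 0.11, and large points mark adjusted p under 0.05: Rpl7a in week 4 against PBS, and Rpl36al, Rpl3, Rps9 and Rpl3l in week 4 against week 1.

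The direction of the group at week 4 turned on the lane. With group as the only factor, the members' median for week 4 against PBS was -0.41, 6 were called lower and none higher, while 14.1% of all genes were called lower and 15.3% higher. The 6 were Rpl3l, Rpl8, Rps26, Rps2, Rpl29 and Rplp0. Without the 10 lane 2 libraries the median was 0.14, from 3 libraries of week 4 and 8 of PBS, and no member was called, where 0.736% of all genes were called higher and 0.158% lower. In the authors' deposited table for this comparison, 12 members were listed among 4313 genes, all lower at week 4. The share of all genes that the authors found lower was not worked out here. With group as the only factor, that share was 14.1%, as given above. The authors' table gives the stalk proteins Rplp1 and Rplp2 log2 fold changes of -0.62 and -0.68, Rps13 one of -0.67 and Rpl3l one of -0.51. With the lane 2 term, Rplp1 had a log2 fold change of 0.06 (SE 0.16) and Rplp2 of 0.08 (SE 0.16), with adjusted p values of 0.85 and 0.80 by edgeR's quasi-likelihood test.

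Levels spanned a wide range among the members. Per kilobase of transcript, PBS means were highest for the stalk genes Rplp1 at 909 ± 133 CPM per kb and Rplp0 at 532 ± 61 CPM per kb (SD, n = 8), whose products form the base and tip of the stalk that recruits translation factors. Rpl4, a protein of the exit tunnel wall, stood at 421 ± 39 CPM per kb. The middle of the 83 tested genes was 133 CPM per kb, with quartiles of 59.9 and 188. The lowest tested were Rps27rt at 0.77 ± 0.79, Rpl21 at 4.26 ± 4.78 and Rpl29 at 13.2 ± 4.7 CPM per kb, and Rpl29 and Rpl7l1 (13.2 ± 1.3 CPM per kb) could not be ordered against their spread. The files hold 268 ribosomal protein pseudogene names, and reads shared with near-identical copies fall outside the genes, so levels of genes with such copies are uncertain.

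Some members varied between libraries of one group far more than others. The SD of residual log2 values outside lane 2 ran from 0.12 for Rpl22 to 1.56 for Rpl24, with a median of 0.22. Rpl24, a protein at the bridge between subunits, had 0.384 to 29.9 CPM in week 4 libraries outside lane 2 and 1.98 to 27.8 CPM in PBS. Rpl21 had 1.93 to 10.4 CPM in the same week 4 libraries and 1.70 to 24.9 CPM in PBS. Their log2 fold changes at week 4 were -0.71 (SE 0.76) and -1.12 (SE 0.78), neither called (adjusted p = 0.60 and 0.38, edgeR's quasi-likelihood test). The annotated exons of Rpl24 overlap those of another gene model, Gm28037.

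Rpl3l, the muscle paralog, was lower late than early in tumour growth. Among the lane 2 libraries it had 213, 239, 188, 243 and 144 CPM at week 4, against 363, 328 and 354 CPM at week 1, and all 5 values lay below all 3. Outside lane 2 it had 261, 412 and 369 CPM at week 4, against 435, 378, 395, 432 and 427 CPM at week 1, and these ranges overlapped. PBS libraries had 282 to 462 CPM with a median of 381. With the lane 2 term, Rpl3l fell by 0.52 on the log2 scale at week 4 against week 1 (SE 0.16, adjusted p = 0.018 by edgeR's quasi-likelihood test). The 10 muscle fibre markers separated in the lane 2 libraries too. They summed there to 93670 to 127800 CPM at week 4, against 131900 to 185300 CPM at week 1. Outside lane 2 the ranges overlapped, at 120000 to 166200 CPM at week 4 and 149500 to 169200 CPM at week 1. Of the 10, 2 were called lower at week 4 than at week 1 by the same test, where 10.1% of all genes were. Their part in the Rpl3l difference was not tested.

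Against PBS, the log2 fold change of Rpl3l was 0.19 (SE 0.16) at week 1, 0.11 (SE 0.16) at week 2, -0.22 (SE 0.16) at week 3 and -0.33 (SE 0.17) at week 4, with adjusted p values of 0.98, 0.90, 0.61 and 0.23 by edgeR's quasi-likelihood test. None passed there, while limma voom called the week 4 value (-0.37, adjusted p = 0.034), as did edgeR's quasi-likelihood test with group as the only factor (-0.55, adjusted p = 0.017). Week 3 outside lane 2 held the lowest library, replicate 1 at 114 CPM, beside 272 to 415 CPM in the other 5. That library was among those that stood apart, with 58630 CPM over the muscle fibre markers, below the 93670 CPM or more of the week 4 libraries. Without the 5 libraries that stood apart, the week 4 value against PBS was -0.37 with an adjusted p of 0.046 by edgeR's quasi-likelihood test.

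Rpl3, the form of the protein in most other tissues, went the other way. In lane 2 it had 40.4, 52.4, 59.9, 61.2 and 83.4 CPM at week 4, against 37.8, 32.6 and 22.3 CPM at week 1, and all 5 lay above all 3. Outside lane 2 it had 117, 38.4 and 73.1 CPM at week 4, against 26.4, 47.4, 56.4, 44.2 and 44.7 CPM at week 1, where 2 of 3 lay above all 5. PBS libraries had 40.1 to 61.9 CPM apart from replicate 1 at 102 CPM. Rpl3 rose by 0.91 on the log2 scale at week 4 against week 1, or 1.88-fold (SE 0.22, adjusted p = 0.0044 by edgeR's quasi-likelihood test). It was also the 1 member called for any difference among the 5 groups (adjusted p = 0.021 by the same tool, where 11.2% of all genes were called).

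The Rpl3 value against PBS was 0.62 at week 4 (SE 0.25, adjusted p = 0.11 by edgeR's quasi-likelihood test). It came to 0.81 with an adjusted p of 0.027 without PBS replicate 1, which had the highest macrophage marker sum, and to 0.81 with 0.027 without week 4 replicate 7. Limma voom called it with all libraries (0.67, adjusted p = 0.018), as did edgeR without the 5 libraries that stood apart (0.79, adjusted p = 0.012). The 12 macrophage markers summed to 148 to 263 CPM at week 4, against 73.9 to 145 CPM at week 1. In PBS they summed to 88.6 to 1146 CPM, with a median of 135. Of the 12, 8 were called higher at week 4 than at week 1, where 11.4% of all genes were. Against PBS none of the 12 was called at week 4, with a median log2 fold change of -0.02 and 8 of 12 negative. Neutrophil markers summed to 62.1 to 292 CPM at week 4, against at most 6.75 CPM at week 1 and 18.1 CPM in PBS. The part of these cells in the Rpl3 difference was not tested. The exons of Rpl3 overlap those of the gene model Gm22077.

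Reads per kilobase of Rpl3l exceeded those of Rpl3 in all but 1 library. In lane 2 the ratio was 1.70 to 5.19 at week 4, against 9.42 to 15.6 at week 1. Outside lane 2 it was 2.19 to 10.5 at week 4, against 6.89 to 16.2 at week 1 and 2.72 to 11.3 in PBS. The week 3 range, 0.754 to 7.95, held the exception, replicate 1. Outside lane 2 the mean log2 ratio was 2.28 ± 1.14 at week 4 (SD, n = 3), against 2.82 ± 0.62 in PBS (SD, n = 8), a difference of -0.55 that did not pass an exact permutation test (two-sided p = 0.30, adjusted p = 0.45 over 12 paralog comparisons). At weeks 1, 2 and 3 the difference from PBS was 0.43, 0.05 and -0.89, with adjusted p values of 0.37, 0.96 and 0.29 in the same exact test.

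**Figure D4:**
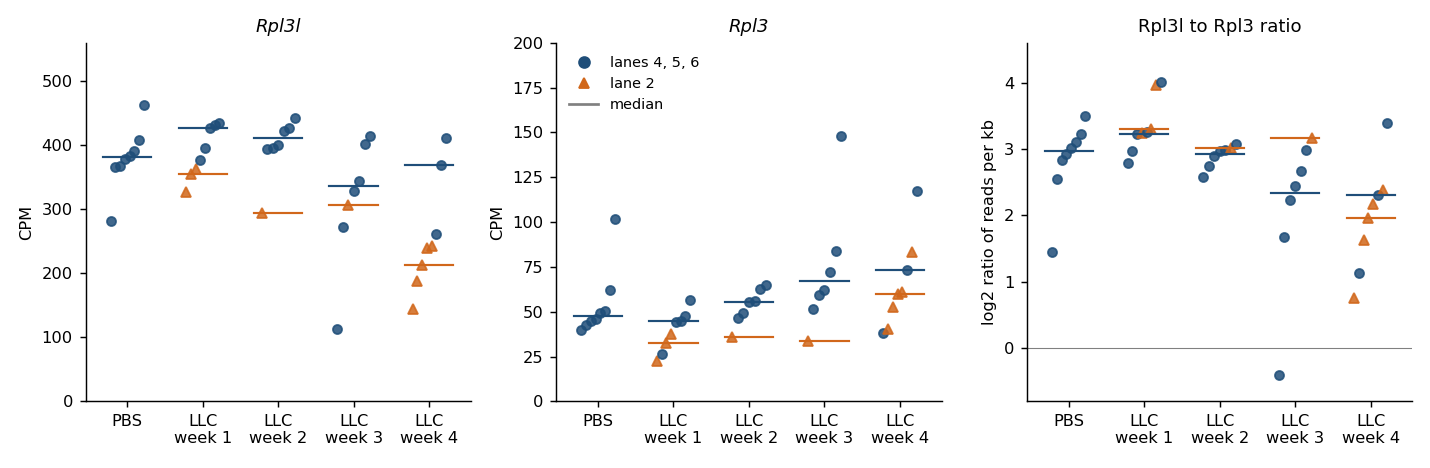
Rpl3l and Rpl3 in CPM (left and middle) and the log2 ratio of their reads per kilobase (right) for each library, by group. Circles are lanes 4, 5 and 6, triangles lane 2 and lines medians. In lane 2, all 5 week 4 libraries lie below the 3 week 1 libraries for Rpl3l and above them for Rpl3.

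The comparison of week 4 with week 1 is the one in which both groups had several lane 2 libraries, and it gave 4 called members of 83, or 4.82%, against 21.5% of all genes (11.4% higher, 10.1% lower). The 3 that rose were Rpl3, Rpl36al and Rps9, and Rpl3l was the 1 that fell. The members' median log2 fold change was 0.09, with 61 of 83 positive, and that of all genes -0.01. There were 10 members with an unadjusted p under 0.05. Without the lane 2 libraries, which left 3 of week 4 and 5 of week 1, none of the 4 was called: the log2 fold changes were 0.79 for Rpl3, -0.26 for Rpl3l, 0.48 for Rps9 and 0.77 for Rpl36al, with adjusted p values of 0.30, 0.71, 0.24 and 0.52 by edgeR's quasi-likelihood test.

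Rps9 had 131, 141, 138, 177 and 147 CPM in the lane 2 libraries of week 4, against 123, 116 and 136 CPM in those of week 1, and 4 of 5 lay above all 3. In the other lanes it had 156, 178 and 120 CPM at week 4 and 97.7 to 125 CPM at week 1. Its log2 fold change at week 4 against week 1 was 0.39 (SE 0.12, adjusted p = 0.020 by edgeR's quasi-likelihood test). PBS libraries, at 97.1 to 194 CPM, covered both groups. Its promoter holds a run of 9 pyrimidines that begins 6 bases before the start.

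Rpl36al, the autosomal paralog of the X-linked Rpl36a, had 34.9, 25.4, 26.9, 59.7 and 6.41 CPM in the lane 2 libraries of week 4, against 22.9, 4.24 and 5.95 CPM in those of week 1. In the other lanes it had 80.4, 56.2 and 55.1 CPM at week 4, against 14.1, 17.9, 19.2, 83.9 and 51.3 CPM at week 1, so the week 4 values lay within the week 1 range. Rpl36al rose by 1.23 on the log2 scale (SE 0.41, adjusted p = 0.029 by edgeR's quasi-likelihood test), and its values in PBS ran from 20.9 to 99.5 CPM. The call was lost without any 1 of 4 libraries, week 4 replicates 4 or 6 or week 1 replicates 5 or 8 (adjusted p up to 0.071), with only the groups compared in the fit (1.09, adjusted p = 0.11) and with group as the only factor (0.65, adjusted p = 0.34, edgeR's quasi-likelihood test). Its exons overlap those of the gene model Gm49383. Rpl36a had a log2 fold change of 0.10 (SE 0.21) at week 4 against PBS, not called.

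Within lane 2 alone, week 4 against week 1 gave 1 member higher, where 8.34% of all genes were called higher, and 2 lower, where 9.22% were. Rpl3 rose by 0.94 (adjusted p = 0.042), Rpl3l fell by 0.76 (adjusted p = 0.016) and Rps2 fell by 0.68 (adjusted p = 0.0093) on the log2 scale, all by edgeR's quasi-likelihood test. Rps2, a 40S protein at the messenger RNA entry, falls outside the rule for naming genes and is named for this call. It had 12.1 to 15.5 CPM at week 4 and 16.0 to 29.7 CPM at week 1 in lane 2, and 29.5 to 37.7 CPM at week 4 and 28.2 to 31.5 CPM at week 1 in the other lanes. Rps2 and Rpl3l are neighbours on chromosome 17, 5891 bases apart. Outside lane 2 no member was called, where 0.62% of all genes were called higher and 0.0885% lower, and the median of the members was 0.26, against -0.10 within lane 2. No member passed the test of the difference between the 2 strata (Rpl3l -0.51, adjusted p = 0.64, and Rps2 -0.90, adjusted p = 0.26, edgeR's quasi-likelihood test), where 0.00681% of all genes were called lower and 0% higher.

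Rpl7a, the member called against PBS, had 97.3, 77.2 and 75.8 CPM at week 4 outside lane 2, against 42.6 to 77.2 CPM in PBS with a median of 57.3. In lane 2, where there is no PBS library, week 4 had 23.5, 27.8, 32.7, 39.99 and 37.9 CPM and week 1 29.0 to 34.4 CPM. Its log2 fold change was 0.46, or 1.38-fold (SE 0.14, adjusted p = 0.041 by edgeR's quasi-likelihood test). Leaving out any 1 of 8 of the 16 libraries ended the call, with adjusted p up to 0.17 (week 4 replicate 6), and the others among them were week 4 replicates 4 and 5 and PBS replicates 2, 3, 6, 7 and 8. The call also ended with a term for each lane (log2 fold change 0.31, adjusted p = 0.32) without the lane 2 libraries (0.53, adjusted p = 0.12), with only the groups compared (0.53, adjusted p = 0.22), with no low-count filter (0.47, adjusted p = 0.057, all by edgeR's quasi-likelihood test) and in limma voom (0.40, adjusted p = 0.056). Small gene models, Gm22879 and Gm24134, overlap its exons.

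Rps16, a 40S protein whose tail reaches the peptidyl site, gave the largest positive log2 fold changes among the members at weeks 1, 2 and 4, none of them called by edgeR's quasi-likelihood test. DESeq2 and limma voom called the week 4 value (log2 fold changes of 1.10 and 1.07, adjusted p = 0.041 and 0.032). It had 33.8 to 44.4 CPM in 7 PBS libraries and 89.6 CPM in PBS replicate 8. Outside lane 2 it had 92.6 to 102 CPM in 4 week 1 libraries and 38.4 CPM in replicate 1, 63.4 to 130 CPM at week 2, 45.5 to 154 CPM at week 3, and 48.3, 107 and 118 CPM at week 4. Every tumour group overlapped with PBS.

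The fitted log2 fold change of Rps16 against PBS was 1.11 (SE 0.34), 1.09 (SE 0.32), 0.83 (SE 0.32) and 1.10 (SE 0.36) at weeks 1 to 4, with adjusted p values of 0.52, 0.30, 0.29 and 0.059 by edgeR's quasi-likelihood test. Without PBS replicate 8, the week 4 value was 1.31 with an adjusted p of 0.031, and without week 4 replicate 1 it was 1.18 with 0.034. Rps16-ps2, a pseudogene on chromosome 5, had the opposite pattern: 3.85 to 6.52 CPM in 7 PBS libraries but 0.639 CPM in replicate 8, and 0.221 to 1.27 CPM in 4 week 1 libraries outside lane 2 but 4.14 CPM in replicate 1. At week 4 outside lane 2 it had 8.70, 1.67 and 1.06 CPM in the libraries with 48.3, 107 and 118 CPM of Rps16. How reads were split between gene and copy was not tested.

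**Figure D5:**
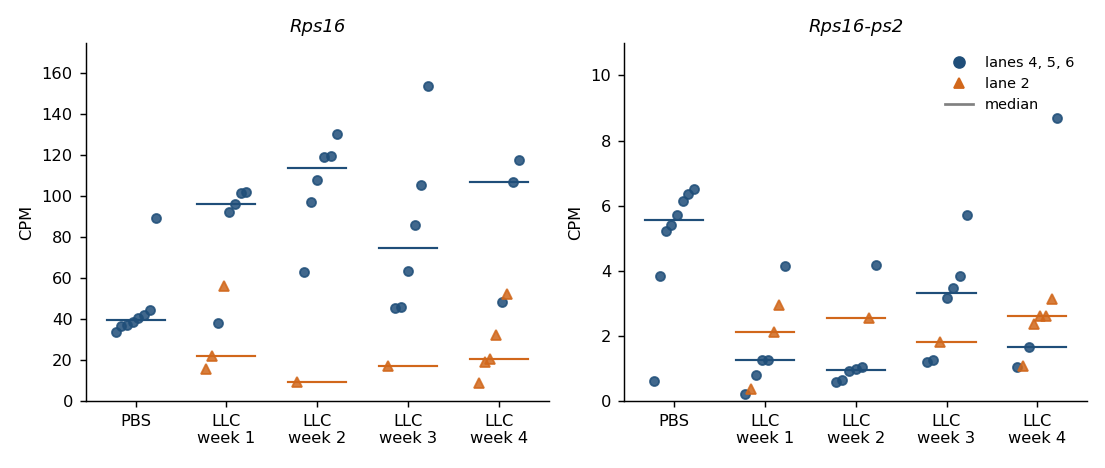
Rps16 (left) and its pseudogene Rps16-ps2 (right) in CPM for each library, by group. Circles are lanes 4, 5 and 6, triangles lane 2 and lines medians. The PBS library at 89.6 CPM of Rps16 is the one at 0.639 CPM of Rps16-ps2.

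The other paralog pairs did not pass the test. Rpl22, which binds RNA, represses its paralog Rpl22l1 in mouse cells. Outside lane 2, Rpl22l1 had 27.9, 23.4 and 27.2 CPM at week 4, against 14.5 to 27.7 CPM in PBS, and Rpl22 had 162, 152 and 142 CPM at week 4, against 129 to 154 CPM in PBS. The log2 fold changes at week 4 against PBS were 0.60 (SE 0.24) for Rpl22l1 and 0.20 (SE 0.12) for Rpl22, with adjusted p values of 0.12 and 0.30 by edgeR's quasi-likelihood test. The mean log2 ratio of Rpl22l1 to Rpl22 outside lane 2 was -0.33 ± 0.25 at week 1 (SD, n = 5), against -0.82 ± 0.33 in PBS (SD, n = 8), a difference of 0.49 with an exact permutation p of 0.017 (two-sided) and an adjusted p of 0.21 over the 12 paralog comparisons. At weeks 2, 3 and 4 the difference was 0.30, 0.23 and 0.18, with adjusted p values of 0.29, 0.36 and 0.47 in the same exact test. The annotated exons of Rpl22l1 overlap those of Gm33051 on the other strand.

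Rps27l, a paralog of Rps27 known as a p53 target, had 53.6, 53.5 and 55.8 CPM at week 4 outside lane 2, against 48.1 to 63.9 CPM in PBS. Rps27 had 109, 113 and 90.8 CPM at week 4 and 84.9 to 106 CPM in PBS. The log2 fold changes were -0.04 (SE 0.14) and 0.39 (SE 0.20) at week 4, neither called. The log2 ratio of Rps27l to Rps27 outside lane 2 differed from PBS by -0.01, 0.08, -0.20 and -0.17 at weeks 1 to 4, with adjusted p values of 0.96, 0.47, 0.29 and 0.36 in the exact permutation test.

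Members with roles outside the ribosome or on the X chromosome gave no call at week 4 against PBS. Rps6, the main phosphorylated protein of the 40S subunit, had a log2 fold change of 0.16 (SE 0.12). Rpsa, also known as the laminin receptor precursor, had 0.06 (SE 0.12), and the stalk gene Rplp0 had -0.02 (SE 0.10). X-linked Rpl10 and Rpl39 had 0.42 (SE 0.21) and 0.24 (SE 0.26), and X-linked Rps4x had 0.19 (SE 0.16). Rpl7l1, a paralog of Rpl7, had -0.02 (SE 0.09). The smallest of their adjusted p values was that of Rpl10, 0.21 by edgeR's quasi-likelihood test.

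The other members with the largest fold changes at weeks 1, 2 and 3 against PBS were not called by edgeR's quasi-likelihood test. At week 1, Rps23, a decoding-centre protein, had a log2 fold change of 0.50 (SE 0.33), Rpl22l1 0.33 (SE 0.21), Rpl21 -1.38 (SE 0.82), Rpl36al -0.76 (SE 0.41) and Rpl24 -0.61 (SE 0.78). At week 2, Rpl28 had 0.52 (SE 0.29), Rps23 0.42 (SE 0.32), Rpl24 -0.73 (SE 0.70), Rpl13 -0.45 (SE 0.37) and Rps27rt -0.44 (SE 0.65). At week 3, Rpl21 had 0.85 (SE 0.71), Rpl28 0.57 (SE 0.29), Rpl24 -1.53 (SE 0.72), Rps27rt -0.60 (SE 0.65) and Rpl29 -0.31 (SE 0.21). Rpl23a, at the tunnel exit, had 0.46 (SE 0.21) at week 4 against week 1, with an adjusted p of 0.11 by edgeR's quasi-likelihood test. Rps27rt and Rps23 had -0.60 (SE 0.60) and -0.27 (SE 0.30) there.

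Week 4 was also set against weeks 2 and 3. No member was called in either by edgeR's quasi-likelihood test, where 10.8% and 0.177% of all genes were called, and 4 and 1 members had an unadjusted p under 0.05. The medians were 0.06 and 0.02. For week 4 against week 2, the authors' deposited table lists 2 members among 3388 genes, Rpl3l with a log2 fold change of -0.58 and Rps9 with 0.28. Their table for week 4 against week 3 lists 476 genes and no member. For week 4 against week 1 the authors' deposited table lists 3 members among 3336 genes, Rpl3 (0.68), Rps9 (0.37) and Rpl3l (-0.55). The share of all genes in these lists was not worked out here.

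Genes that make and regulate ribosomes were listed to set beside their proteins. Of 50 ribosome biogenesis genes, 15 rose, or 30%, and none fell at week 4 against week 1, where 11.4% of all genes were called higher and 10.1% lower, with a median log2 fold change of 0.23 against -0.01 for all genes. Ddx21, a nucleolar helicase, rose by 0.79 (SE 0.18), Tsr1, a 40S assembly factor, by 0.71 (SE 0.18), Rrp12 by 0.52 (SE 0.15) and Polr1a, the largest subunit of RNA polymerase I, by 0.42 (SE 0.13), with adjusted p values of 0.0030, 0.0071, 0.013 and 0.017 by edgeR's quasi-likelihood test. Against PBS none of the 50 was called at week 4 by that tool, with a median of 0.20, 16 at an unadjusted p under 0.05 and Ddx21 at 0.63 (SE 0.20, adjusted p = 0.054). Without the lane 2 libraries no gene of the list was called in either comparison, with medians of 0.18 against week 1 and 0.13 against PBS. Without the 5 libraries that stood apart, a fit added after the data were seen, 6 of the 50 rose against PBS. In that fit 1567 genes were called in all, counting both directions. The share of all genes called higher there was not worked out, so these 6 do not compare the list with all genes.

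Among 12 regulators of translation, 2 rose at week 4, or 16.7%, where 3.44% of all genes were called higher against PBS and 11.4% against week 1. Eif4ebp1, the mTORC1 substrate that holds back cap-dependent initiation, rose by 1.51 against PBS (SE 0.41, adjusted p = 0.025) and by 1.54 against week 1 (SE 0.36, adjusted p = 0.0037). Larp1, which binds the pyrimidine starts of ribosomal protein messenger RNAs, rose by 0.38 against PBS (SE 0.11, adjusted p = 0.041) and by 0.39 against week 1 (SE 0.10, adjusted p = 0.0064), all by edgeR's quasi-likelihood test. Neither was called without the lane 2 libraries.

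Of 39 translation factors, 1 rose and 1 fell against PBS at week 4, and 6 rose and 2 fell against week 1. These are 5.13% and 20.5% of the list, near the 5.64% and 21.5% of all genes called. Eif3l, a subunit of initiation factor 3, rose by 0.30 against PBS (SE 0.09, adjusted p = 0.048), and Tpt1, whose messenger RNA also starts with a pyrimidine run, fell by 0.87 (SE 0.26, adjusted p = 0.044, edgeR's quasi-likelihood test). The ribosome-associated genes Rack1 and Fau were not called in either comparison, with log2 fold changes of 0.24 (SE 0.10) and 0.11 (SE 0.22) against PBS.

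Mitochondrial ribosomal proteins, which build the separate ribosome that translates mitochondrial messages, had mostly negative values. Of 77 tested, 4 fell and none rose at week 4 against PBS, or 5.19% against 5.64% of all genes, with a median of -0.17, beside 0.11 for the cytosolic members. Mrpl12 fell by 0.62 (SE 0.15), Mrpl4 by 0.48 (SE 0.12), Mrpl49 by 0.41 (SE 0.12) and Mrps31 by 0.35 (SE 0.10), with adjusted p values of 0.011, 0.013, 0.042 and 0.040 by edgeR's quasi-likelihood test. Against week 1, 19 fell and 1 rose, or 26%, against 21.5% of all genes (11.4% higher, 10.1% lower), with a median of -0.21. The difference between the lists was not tested. These genes were lower in lane 2 too, 64 of 77 with a median log2 difference of -0.51, and without the lane 2 libraries none was called against either group, with medians of -0.10 against PBS and -0.06 against week 1.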

How the data were processed

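Gene counts of 38 gastrocnemius libraries were used as the authors deposited them, from FastQC, HISAT2 and HTSeq on build GRCm38.p5 according to the submitters' processing notes, without tool versions. Per the labels' protocols, RNA was taken with Trizol and 1 µg went into an Illumina TruSeq RNA kit. No source used here states whether counting used strand, so reads of overlapping antisense genes cannot be told apart. The authors' deposited tables hold log2 fold changes with standard errors, and p-values with adjusted p-values, per the file headers; DESeq2 made them per the submitters' processing notes.

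Lines of unassigned reads, among them 3.80% to 10.6% of reads in no gene, stayed out of library sizes and tests. Names, lengths and coordinates come from GENCODE M21, which holds 45229 of the 46078 genes. Lengths, also those behind values per kilobase, are of 1 principal transcript per gene, the longest of those ranked equally. Tests used edgeR 4.0.16 in R 4.3.3 with TMM scaling, the filterByExpr filter (by group, minimum count 10) and quasi-likelihood fits of the 5 groups with a lane 2 term. Adjustment was by Benjamini-Hochberg over 14689 genes, with calls at an adjusted p under 0.05. CPM are TMM-scaled. Paralog ratios are log2 ratios of reads per kilobase with 0.5 read added, compared by exact two-sided permutation tests (2 times the smaller tail). The smallest p these allow is 0.012 for week 4. Scripts were tested on simulated data. The closest pair of libraries within a group had a chi-square of 14.2 per degree of freedom, so none was a duplicate.

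Always named were Rpl3l, Rpl3, Rpl22l1, Rpl22, Rps27l, Rps27, Rpl39l, Rpl39, Rpl7l1, Rpl10, Rpl36a, Rpl36al, Rps4x, Rps6, Rpsa and Rplp0 to Rplp2. Added were, for each week against PBS and for week 4 against week 1, the 3 largest positive and the 3 largest negative changes and every call, the 3 highest and 3 lowest members by level, and up to 4 genes of each other list by smallest p. Members, lists and the lane 2 term were chosen with earlier results of these data known. Alternatives were no filter, 5 CPM, other size factors, DESeq2 1.42.0, limma 3.58.1 voom weights, other lane terms, only the groups compared, a 1.5-fold minimum, and each library left out. Added after the data were seen were fits without the 5 libraries that stood apart and another definition of the two-sided p.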

Additional observations from a re-analysis of the deposited data

Results flagged for a closer look

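Among 50 sets of 4 to 10 libraries of one group (10 measures, on lane 2 libraries for week 4 and on the other lanes for the other groups), 7 held a library farther from the others than Dixon's 95% limit, where chance gives about 1 in 20.

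Rpl3 stood at 101.9 CPM in PBS replicate 1, against 40.1 to 61.9 CPM in the other PBS libraries, and at 148 CPM in week 3 replicate 1, against 51.3 to 84.0 CPM in the others of week 3. The log2 ratio of Rpl3l to Rpl3 was 1.444 in PBS replicate 1, against 2.55 to 3.50 in the others. PBS replicate 1 had 1146 CPM over macrophage markers and week 3 replicate 1 had 58630 CPM over muscle fibre markers, and their part in these values was not tested.

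Rps16 stood at 89.61 CPM in PBS replicate 8, against 33.8 to 44.4 CPM in the other PBS libraries, and at 38.45 CPM in week 1 replicate 1, against 92.6 to 102 CPM in the others. In both libraries Rps16-ps2 lay on the other side of its group, at 0.639 and 4.14 CPM.

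The log2 ratio of Rpl22l1 to Rpl22 was -1.049 in week 3 replicate 1, against -0.59 to -0.38 in the others of week 3. The log2 ratio of Rps27l to Rps27 was -1.077 in week 3 replicate 3, against -1.72 to -1.48 in the others.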

How the results depend on the processing

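No paired analysis was possible because no groups that were compared share a sample number. Between weeks 2 and 1, which were not compared, 3 numbers recur with a letter b added at week 1, and the labels do not say what the letter means.

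With group as the only factor, the members' median log2 fold change was -0.295 at week 1 and -0.412 at week 4 against PBS, and -0.083, -0.376 and -0.413 for week 4 against weeks 1, 2 and 3. Members called were 6 for week 4 against PBS, 2 against week 2 and 3 for any difference among groups. These fold changes turned round: Rps23 -0.080 and Rpl22l1 -0.143 at week 1, and at week 4 Rpl22l1 -0.532, Rpl22 -0.321, Rps27 -0.657, Rpl39 -0.741, Rpl10 -0.387, Rpl36a -0.535, Rpl36al -0.541, Rps4x -0.376, Rps6 -0.182, Rpsa -0.071, Rplp1 -0.722, Rplp2 -0.834, Rpl7a -0.164 and Rps27rt 0.016. At week 4 against PBS, 15.3% of all genes were called higher and 14.1% lower in this fit. Those called held 21 of 50 ribosome biogenesis genes (20 higher, 1 lower) and 12 of 39 translation factors (9 higher, 3 lower). They also held 5 of 12 translation regulators, all higher, and 55 of 77 mitochondrial ribosomal proteins, all lower.

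Without lane 2 libraries, 0 members were called against PBS, against week 1 or for any difference, the median against week 1 was 0.248, and Rps27l (0.011), Rplp0 (0.060) and Rplp1 (-0.018) against PBS and Rps27rt (0.017) and Rps23 (0.516) against week 1 changed sign. Fewer samples were in this fit. Of the other lists, 0 genes were called in both comparisons. A term for each lane gave 0 members against PBS and 0 for any difference, and Rps27l (0.0024) and Rpl7l1 (0.019) changed sign. Only the groups compared gave 0 against PBS, with Rps27l 0.0080, Rplp0 0.056 and Rplp1 -0.023. No low-count filter gave 0, and a change of at least 1.5 times gave 0 against PBS and 2 against week 1. DESeq2 called 2 members against PBS and 2 for any difference. Limma voom called 3 against PBS, 2 against week 2 and 4 for any difference. A mean of at least 5 CPM gave 5 members within lane 2. Counts of members in this section that stand without the share of all genes called do not compare members with all genes.

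Without the 5 libraries that stood apart, 3 members were called against PBS, 1 against week 2 and 2 for any difference. Against PBS, 6 of 50 biogenesis genes rose and 11 of 77 mitochondrial ribosomal protein genes fell, where 1567 genes were called in all, counting both directions. The shares of all genes called higher and lower in this fit were not worked out, so these counts do not compare the lists with all genes. The Rpl3l to Rpl3 ratio at week 2 was then -0.169. With lane 2 libraries in the ratios, Rpl22l1 to Rpl22 was -0.106 and -0.468 at weeks 1 and 4, and Rps27l to Rps27 0.502, 0.036 and 0.361 at weeks 1, 3 and 4. The cause was not tested for any of these changes, and the part of the smaller samples was not tested either.

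Leaving out 1 library at a time gave 0 to 2 members against PBS at week 4, 3 to 8 against week 1 (8 without week 1 replicate 4, 7 without week 4 replicate 1), 0 to 2 against week 2 and 0 to 2 for any difference. Ranges that crossed 0 were Rps27l -0.087 to 0.0038, Rpl7l1 -0.062 to 0.028, Rpsa -0.0037 to 0.098 and Rplp0 -0.065 to 0.0065 at week 4 against PBS, Rps23 -0.466 to 0.184 at week 4 against week 1, Rpl3l to Rpl3 -0.147 to 0.147 at week 2 and -1.11 to 0.030 at week 4, and Rps27l to Rps27 -0.094 to 0.082 at week 1. Without PBS replicate 1, Rpl3l to Rpl3 at week 3 differed by -1.09 and Rpl22l1 to Rpl22 at week 1 by 0.56, each with an adjusted exact permutation p of 0.070, or 0.045 where the two-sided p counts absolute differences. That second definition was used first and replaced after the data were seen.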
